A study of Mus musculus with 8 samples.

Results

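The AP-1 transcription factors and Atf3 were followed as 10 genes chosen by symbol, namely Fos, Fosb, Fosl1, Fosl2, Jun, Junb, Jund, Atf3, Maff and Batf. All 10 were listed among the 24346 genes measured in each library. RNA-seq was done on untreated epithelial cells from the colon of C57BL/6J mice, with 1 male and 1 female library for each of 4 genotypes, 8 in all. These were wild-type, St6galnac6-/- and B3gnt7-/-, which are knockouts of a sialyltransferase and of an N-acetylglucosaminyltransferase, and B3galt5D116A, a substitution in a galactosyltransferase. The labels give neither age nor the number of animals behind a library, and are silent on whether the wild-type mice were littermates of the mutants. Replicates here are therefore a male and a female library. The p-values reflect only the spread left after genotype and sex are fitted, partly borrowed from other genes, and that spread may be technical.

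AP-1 is a dimer of basic leucine zipper proteins. A Fos protein cannot pair with itself and binds DNA with a Jun protein, while Jun proteins can also pair with each other. The dimer reads the letters TGA(C/G)TCA, called the TRE, and pairs that contain an ATF protein prefer the longer CRE, TGACGTCA. Several of these genes, Fos, Fosb, Junb and Atf3 among them, are immediate early genes, which are transcribed soon after a growth factor or stress signal without new protein being made. The MAP kinases, the serum response factor and CREB carry that signal to their promoters.

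The stretches before the start sites of Fos, Fosb, Junb and Atf3 are shown because Fosb and Atf3 passed the test against wild-type, and Fos and Junb are immediate early genes that were below wild-type in all 6 mutant libraries. They are the 250 bases before the first listed RefSeq start on build GRCm38.p6, written 5′ to 3′ on the strand of the gene. The capitals mark the CRE core TGACG or its reverse complement. They lie at chr12:85473640-85473889 on the plus strand for Fos, chr7:19310046-19310295 on the minus strand for Fosb, chr8:84978749-84978998 on the minus strand for Junb and chr1:191183334-191183583 on the minus strand for Atf3.
Fos: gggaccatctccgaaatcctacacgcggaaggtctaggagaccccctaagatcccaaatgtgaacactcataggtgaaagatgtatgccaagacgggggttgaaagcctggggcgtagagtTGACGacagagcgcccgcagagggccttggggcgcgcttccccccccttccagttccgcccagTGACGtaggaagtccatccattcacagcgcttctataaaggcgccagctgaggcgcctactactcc
Fosb: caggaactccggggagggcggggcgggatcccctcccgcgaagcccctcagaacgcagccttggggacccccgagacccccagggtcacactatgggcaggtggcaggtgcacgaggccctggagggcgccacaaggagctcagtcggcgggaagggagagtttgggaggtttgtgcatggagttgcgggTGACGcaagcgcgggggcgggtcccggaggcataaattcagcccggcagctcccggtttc
Junb: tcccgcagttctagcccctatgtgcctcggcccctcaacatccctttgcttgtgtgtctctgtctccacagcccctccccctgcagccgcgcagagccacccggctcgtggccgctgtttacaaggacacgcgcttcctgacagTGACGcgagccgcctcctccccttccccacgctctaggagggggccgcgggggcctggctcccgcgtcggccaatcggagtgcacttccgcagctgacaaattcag
Atf3: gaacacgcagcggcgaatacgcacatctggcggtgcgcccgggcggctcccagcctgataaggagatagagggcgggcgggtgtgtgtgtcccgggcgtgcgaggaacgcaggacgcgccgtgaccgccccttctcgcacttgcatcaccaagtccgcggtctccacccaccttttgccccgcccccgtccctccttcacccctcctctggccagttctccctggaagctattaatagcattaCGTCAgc

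RefSeq windows from 250 bases before to 50 bases after the start were matched for 9 members, all but Fosl1. For each member the first listed start was used, and any other starts were not searched. The 250 bases used for Jund end at 70697738, before the start of its gene span at 70698949. Those for Atf3 lie inside its gene span, which runs from 191170296 to 191218039. Those for Fosl2, at 32136222 to 32136471, also lie inside its span, which begins at 32135801. Those for Batf run to 85686719, past the start of its span at 85686669. On the minus strand, those for Junb begin at 84978749, beyond the end of its span at 84978718. Those for Fosb begin at 19310046, within its span, which ends at 19310051. Positions below are counted from the RefSeq start used. Both strands were searched. The TRE was searched as TGANTCA with N as any base, a wider pattern than the TRE itself. This pattern, the full CRE and the CArG box of the serum response factor were found in 0 of the 9 windows. Over all promoters they were found in 7.81%, 1.79% and 1.63% of 32851. The CRE core TGACG, a part of the full CRE that was searched after the sequences had been seen, was found in 5 of 9 windows (Fos, Fosb, Junb, Atf3 and Batf) and in 20.8% of all promoters. In Fos it lies at positions -129 to -125 and -66 to -62, in Fosb at -60 to -56, in Junb at -106 to -102 and in Atf3, on the opposite strand, at -7 to -3. A match is a description of these letters, and factors can bind outside these windows.

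FPKM sums of the libraries (fragments per kilobase, a scale set relative to gene length and library size) ran from 518482 to 639537, and 11392 to 11663 genes per library reached 1 FPKM. Read counts are not used here. The depth read from the steps between low values was lowest in the wild-type libraries, at 1 and 1.05, against 1.18 to 1.45 in the mutants, so depth differed with genotype, and its part in the results was not tested. Epithelial markers were high in every library. The 11 listed summed to 20024 and 21797 FPKM in wild-type and 16102 to 29617 FPKM in the mutants. Epcam was at 864 to 953 FPKM, while Car1 ran from 5241 to 16569 FPKM. In the mean of the 3 mutants 2 were lower at an unadjusted p under 0.05 (6.01% of all genes) and 0 higher. They were Slc26a3 (log2 -0.42) and Krt18 (log2 -0.34, limma adjusted p = 0.377 and 0.402), and their part in the AP-1 differences was not tested. Markers of other cells were low. Of 9 T cell and intraepithelial lymphocyte markers, summed levels were 8.29 and 12.9 FPKM in wild-type and 6.14 to 17.8 FPKM in the mutants. The 9 stromal and muscle markers summed to 7.61 and 9.87 FPKM in wild-type and to between 7.0 and 33.0 FPKM in the mutants, where the B3gnt7-/- female library stood apart at 33.0 FPKM. The 10 myeloid markers summed to 3.63 and 5.51 FPKM in wild-type and 3.67 to 9.58 FPKM in the mutants, with the B3galt5D116A female at 9.41 and the B3gnt7-/- pair at 7.39 and 9.58 FPKM. Among them 3 were tested in the mean of the 3 mutants. The log2 differences were 0.60 for the macrophage gene Cd68, 0.55 for C1qa and -0.053 for Lyz2 (limma adjusted p = 0.355, 0.625 and 0.963). Cd68 was higher at an unadjusted p under 0.05 (5.3% of all genes). The part of these markers in the AP-1 differences was not tested, and the neutrophil gene S100a8 was listed at 0 in all 8. The targeted transcripts were lowest in their own knockouts, with St6galnac6 at 218 and 232 FPKM (wild-type 343 and 368 FPKM) and B3gnt7 at 68.8 and 142 FPKM (wild-type 189.8 and 215 FPKM). B3galt5 was at 93.1 and 133 FPKM in B3galt5D116A against 105 and 117 FPKM, and a substitution is not checked by its transcript level.

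The 10 genes together were lower in each mutant library than in either wild-type library. Their summed level was 4589 FPKM in the wild-type male library and 3916 FPKM in the female. The St6galnac6-/- male and female summed to 2762 and 2503 FPKM, the B3galt5D116A pair to 2642 and 2557, and the B3gnt7-/- pair to 3079 and 2822. Fos was the most abundant member in every library, and Atf3 and Jun followed. Fos ranked 51 and 54 among all genes in wild-type and between 40 and 115 in the mutants, Atf3 ranked 76 and 124 in wild-type and 176 to 233 in the mutants, and Jun stayed within 161 to 205 in all 8 libraries. Because these are bulk libraries, fewer cells expressing a gene and less RNA per cell cannot be told apart.

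**Figure D1:**
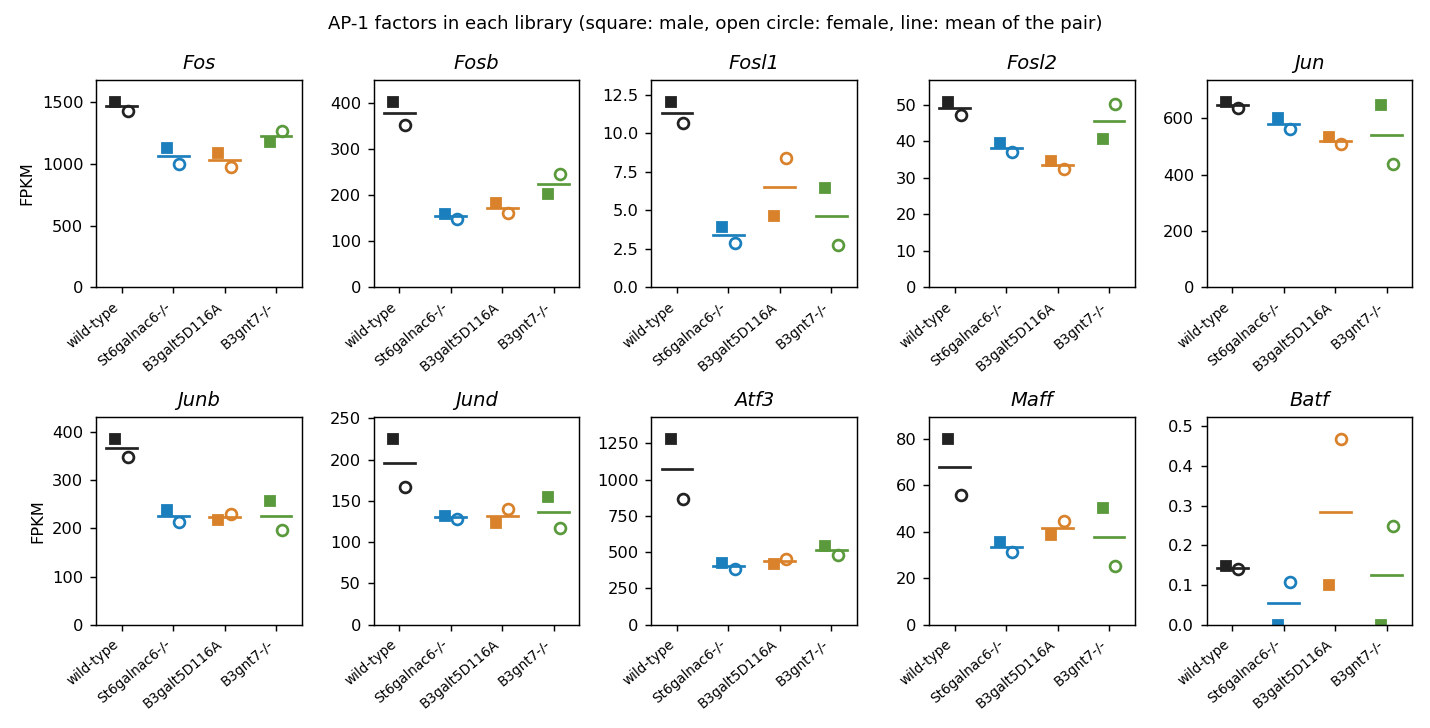
FPKM of each of the 10 AP-1 factors (vertical axes from 0, each panel with its own scale) in the 4 genotypes; squares are male libraries, open circles female libraries and lines the mean of the pair. Both wild-type points lie above all 6 mutant points for Fos, Fosb, Fosl1, Junb, Jund, Atf3 and Maff, but not for Fosl2, Jun or Batf.

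Fosb was the Fos family member that passed the test. It encodes a Fos protein that pairs with Jun proteins and lies on mm10 chromosome 7 from 19302696 to 19310051 on the minus strand. It stood at 401 and 352 FPKM (wild-type male and female), while the St6galnac6-/- pair gave 159 and 148, the B3galt5D116A pair 183 and 162, and the B3gnt7-/- pair 201 and 246 FPKM. The 2 groups did not overlap, and the mutant libraries held 39.7% to 69.9% of the level in same-sex wild-type. With the 3 mutants averaged and set against wild-type, Fosb fell by 1.05 on the log2(FPKM + 1) scale (SE 0.13, limma adjusted p = 0.0470), lower in 6 of 6 mutant libraries. The call was lost with quantile normalization (adjusted p = 0.107), no filter on low values (0.264) and a constant prior variance (0.0640). Against wild-type singly, the log2 differences were -1.29 for St6galnac6-/- (adjusted p = 0.0695), -1.12 for B3galt5D116A (adjusted p = 0.0886) and -0.75 for B3gnt7-/- (adjusted p = 0.339), none past the threshold of 0.05. These 3 comparisons share the same 2 wild-type libraries.

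Fos, the founding member of the family, lies on chromosome 12 from 85473890 to 85477273 on the plus strand. It was at 1501 (male) and 1431 FPKM (female) in wild-type mice, while values were 1128 (male) and 999.6 (female) with St6galnac6-/-, 1089.5 and 977 with B3galt5D116A, and 1179 and 1266 FPKM with B3gnt7-/-. All 6 mutant values were below both wild-type values, at 68.2% to 88.5% of the library of the same sex, the closest being the B3gnt7-/- female. The log2 difference of the mutant mean was -0.41 (SE 0.13, limma adjusted p = 0.341).

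The other Fos proteins were less abundant. Fosl1, which encodes Fra-1 (chromosome 19 from 5447547 to 5455946), was at 12.02 (male) and 10.6 FPKM (female) in wild-type mice, while the St6galnac6-/- pair gave 3.90 and 2.88, the B3galt5D116A pair 4.63 and 8.40, and the B3gnt7-/- pair 6.46 and 2.74 FPKM. The 2 wild-type values were highest, and the mutants spread over 2.74 to 8.40 FPKM, with a log2 difference of -1.16 (SE 0.29, limma adjusted p = 0.233). Fosl1 overlaps the gene Ccdc85b on the opposite strand over 2767 bases, and Ccdc85b measured 14.3 and 17.4 FPKM in wild-type and 6.63 to 10.7 FPKM in the mutants. Whether counting used the strand is not given in the sources used here, so reads of the 2 genes may be mixed. Fosl2, which encodes Fra-2 (chromosome 5 from 32135801 to 32157842), was at 50.8 and 47.3 FPKM (wild-type male and female), while values were 39.4 (male) and 37.1 (female) with St6galnac6-/-, 34.7 and 32.5 with B3galt5D116A, and 40.6 and 50.3 FPKM with B3gnt7-/-. Here the B3gnt7-/- female lay between the wild-type values, and the mutant mean differed by -0.33 (SE 0.11, adjusted p = 0.352).

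Of the 3 Jun genes none passed the test. Jun itself, an intronless gene on chromosome 4 from 95049034 to 95052222, was the member nearest to wild-type in the mean of the 3 mutants, while in B3gnt7-/- Fosl2 (-0.11) and Fos (-0.26) were nearer than Jun (-0.28). It was at 657 (male) and 636 FPKM (female) in wild-type mice, while St6galnac6-/- mice had 601 and 561, B3galt5D116A mice 533 and 507, and B3gnt7-/- mice 645 and 438 FPKM. The B3gnt7-/- libraries enclosed the other mutants, 1 within the wild-type range and 1 the lowest of all 8, and the mutant mean differed by -0.25 (95% interval -0.58 to 0.082, limma adjusted p = 0.543).

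Junb, a Jun protein that is a weaker activator than Jun on many promoters, showed nearly the same difference in each mutant. It lies on chromosome 8 from 84974484 to 84978718 and was at 384 and 347 FPKM (wild-type male and female), while the St6galnac6-/- pair gave 237 and 214, the B3galt5D116A pair 218 and 229, and the B3gnt7-/- pair 256 and 196 FPKM. The groups were well apart, and the 3 log2 differences were -0.70, -0.71 and -0.70 in that order. For the mutant mean the difference was -0.70 (SE 0.12, limma adjusted p = 0.120), lower in 6 of 6 libraries and not past the threshold. Junb shares 351 bases with Prdx2 on the opposite strand, and Prdx2 measured 238 and 246 FPKM in wild-type and 179 to 269 FPKM in the mutants.

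Jund, the Jun gene usually regarded as the least inducible, lies on chromosome 8 from 70698949 to 70700616 and was also lower. Its wild-type values of 224 and 167 FPKM were further apart than those of Jun or Junb. The St6galnac6-/- male and female were at 132 and 128 FPKM, the B3galt5D116A pair at 123 and 139.9, and the B3gnt7-/- pair at 155 and 117. No mutant reached the lower wild-type value, and the difference was -0.55 (SE 0.14, limma adjusted p = 0.250). Jun overlaps 689 bases and Jund 919 bases of an antisense gene, which was not used here.

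In the mean of the 3 mutants Atf3 had the largest difference among the 9 members tested, on the log2(FPKM + 1) scale. Fosl1, a low gene whose change this scale understates, had a larger one in St6galnac6-/- (-1.5) and in B3gnt7-/- (-1.22). Atf3 encodes a stress-inducible factor of the ATF/CREB group that represses many promoters as a homodimer and pairs with Jun proteins. It lies on chromosome 1 from 191170296 to 191218039 on the minus strand. It was at 1278 and 869 FPKM (wild-type male and female), while St6galnac6-/- mice had 426 and 382, B3galt5D116A mice 419 and 457, and B3gnt7-/- mice 545 and 480.4 FPKM. The highest mutant library was below the lower wild-type library, although the wild-type pair itself spread widely, at 1074 ± 289 FPKM (SD, n = 2). The mutants held 32.8% to 55.3% of the level in same-sex wild-type. For the mutant mean, Atf3 fell by 1.23 on the log2 scale (SE 0.15, limma adjusted p = 0.0470), lower in 6 of 6 libraries. This call was lost with a constant prior variance (adjusted p = 0.0596) or without filtering (0.306). Singly, the log2 differences were -1.38 for St6galnac6-/- (adjusted p = 0.0752), -1.27 for B3galt5D116A (adjusted p = 0.0972) and -1.04 for B3gnt7-/- (adjusted p = 0.339).

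Maff encodes a small Maf protein, which has a leucine zipper but no activation domain of its own, and lies on chromosome 15 from 79346621 to 79359076. It was at 79.7 (male) and 55.6 FPKM (female) in wild-type mice, while values were 35.4 (male) and 31.1 (female) with St6galnac6-/-, 38.6 and 44.4 with B3galt5D116A, and 50.2 and 25.2 FPKM with B3gnt7-/-. The mutants were all below wild-type, with the male B3gnt7-/- library nearest to it, and the difference was -0.84 (SE 0.20, limma adjusted p = 0.228). Batf, a Jun partner best known from T and B cells (chromosome 12 from 85686669 to 85709087), was nearly absent. It was at 0.147 and 0.140 FPKM in wild-type, listed at 0 in the St6galnac6-/- and B3gnt7-/- males, and highest at 0.467 FPKM in the B3galt5D116A female. With a mean of 0.152 FPKM it did not reach the minimum of 1 FPKM and was not tested.

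**Figure D2:**
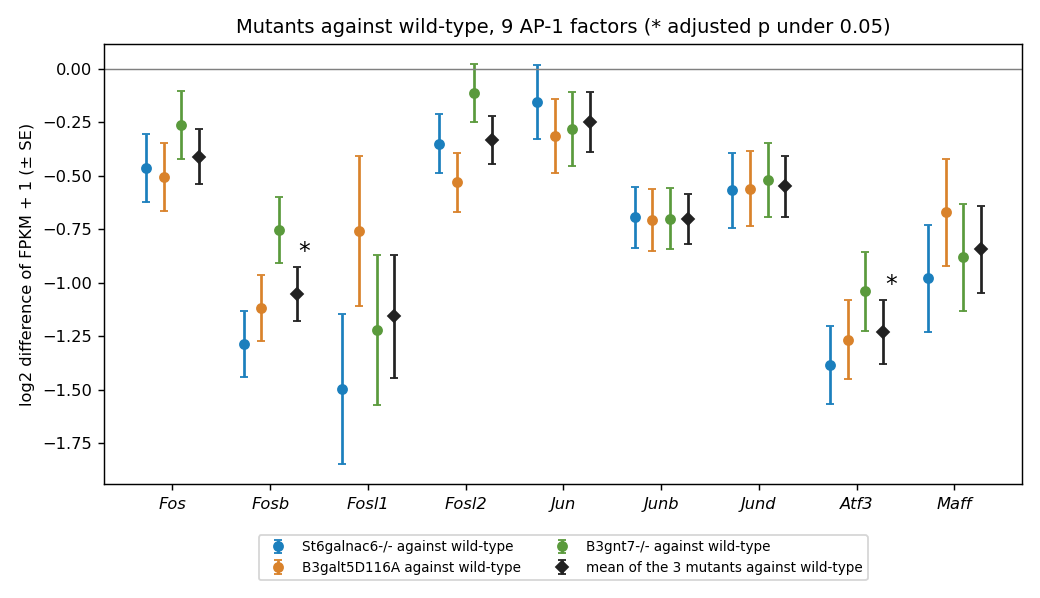
Log2 difference from wild-type of log2(FPKM + 1) for the 9 members tested (vertical axis, with the standard error as bars), for each mutant and for the mean of the 3 mutants. All 36 points lie below 0, and the asterisks mark Fosb and Atf3, past the threshold in the mean of the 3 mutants.

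Across the comparisons with wild-type, all 9 tested members had negative differences in St6galnac6-/- (49.3% of all genes did), B3galt5D116A (49.6%), B3gnt7-/- (52.0%) and their mean (51.2%). In the mean of the 3 mutants, 2 of 9 passed the limma test with Benjamini-Hochberg adjustment (0.182% of all 11537 genes did, 0.139% as lower), and 8 of 9 were lower at an unadjusted p under 0.05 (6.01% of all genes). In St6galnac6-/-, 0 of 9 passed (0.0867% of all genes) and 8 were lower at an unadjusted p under 0.05 (4.98% of all genes). In B3galt5D116A, 0 passed (0.078% of all genes) and 7 were lower unadjusted (5.9%). In B3gnt7-/-, 0 passed (0.052%) and 6 were lower unadjusted (4.29%). The median difference of the 9 members was -0.70, -0.67 and -0.70 in the 3 mutants in the same order and -0.70 in their mean, where the median of all genes was -0.0054. Both wild-type values lay above both mutant values in 9 of 9 members for St6galnac6-/- (23.6% of all genes), 9 of 9 for B3galt5D116A (25.3%) and 7 of 9 for B3gnt7-/- (18.6%). They lay above all 6 mutant values in 7 of 9 (8.32%).

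The 2 calls depended on single libraries, and calls over all genes also fell or rose with the library left out. Both were lost when a wild-type library, a St6galnac6-/- library or the B3galt5D116A male was left out. Fosb was also lost without the B3galt5D116A female. Both held when a B3gnt7-/- library was left out. Such a fit leaves a single library in a genotype, so only log2 differences of the mutant mean are given. Without the wild-type male library they were -0.96 for Fosb and -0.99 for Atf3, and without the wild-type female -1.15 and -1.47. Without the B3gnt7-/- female, whose stromal markers stood apart, they were -1.13 and -1.23. Without the B3gnt7-/- male they were -0.98 and -1.23, and Junb had -0.75.

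**Figure D3:**
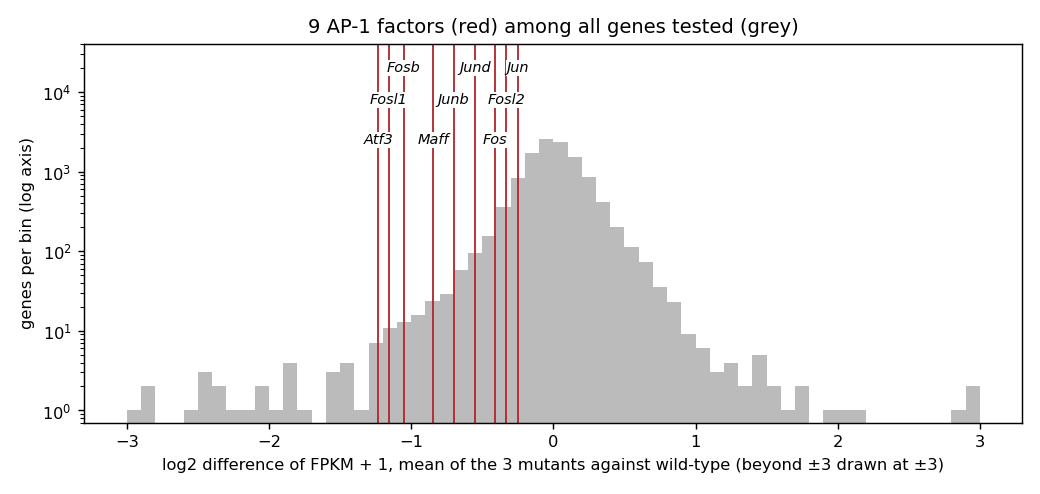
Number of genes (vertical log axis) by log2 difference of log2(FPKM + 1) between the mean of the 3 mutants and wild-type (horizontal axis) for the 11537 genes tested, with the 9 members drawn as red lines. The members lie between -1.23 (Atf3) and -0.25 (Jun), where the median of all genes is -0.0054.

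The shares of the members within the group also differed between wild-type and mutants. Fos made up 32.7% and 36.6% of the summed FPKM of the 10 genes in wild-type and 38.2% to 44.9% in the mutants. Atf3 made up 27.9% and 22.2% in wild-type and 15.2% to 17.9% in the mutants, so the 2 shares did not overlap between the groups. They lay in opposite directions, although the FPKM of both genes was lower in every mutant library, because shares of a sum trade off. Fosb held 8.74% and 8.98% in wild-type and 5.77% to 8.71% in the mutants. Fosl2 held 1.11% and 1.21% against 1.27% to 1.78%, and these 2 shares did not overlap between the groups either. The share of Junb overlapped, 8.38% and 8.86% against 6.96% to 8.94%. The summed Fos family stood at 1.55 and 1.60 times the summed Jun family in wild-type and at 1.31 to 2.08 times in the mutants, the highest being the B3gnt7-/- female, where Fos was high and Jun low.

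**Figure D4:**
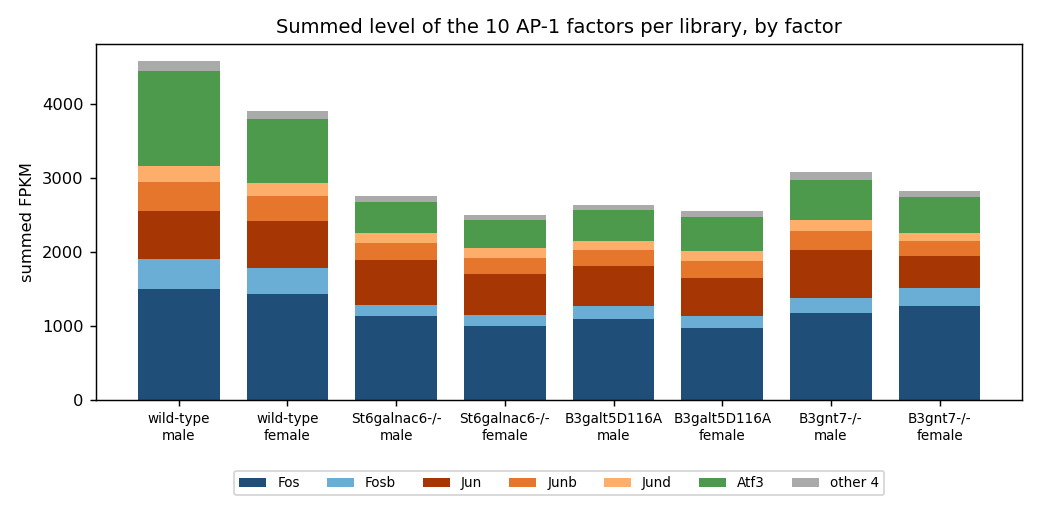
Summed FPKM of the 10 AP-1 factors in each library (vertical axis from 0), stacked by factor, with Fosl1, Fosl2, Maff and Batf combined as the other 4. The wild-type bars reach 4589 and 3916 FPKM and the mutant bars 2503 to 3079 FPKM, and both the Fos and the Atf3 segments are shorter in every mutant library than in wild-type.

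Between mutants, the members were close to each other. The median difference was 0.0079 for B3galt5D116A against St6galnac6-/-, 0.20 for B3gnt7-/- against St6galnac6-/- and 0.040 for B3gnt7-/- against B3galt5D116A. Limma called 0 of 9 members in each (0.026%, 0.0433% and 0.00867% of all genes). At an unadjusted p under 0.05 there were 0, 1 and 2 of 9, against 3.51%, 3.81% and 4.2% of all genes. The 1 was Fosb, higher in B3gnt7-/- than in St6galnac6-/- by 0.53 (95% interval 0.17 to 0.90, adjusted p = 1.0). The 2 were Fosb, with 0.37 (0.0024 to 0.73), and Fosl2, with 0.42 (0.096 to 0.74, both adjusted p = 0.770), higher in B3gnt7-/- than in B3galt5D116A. Intervals were widest for Fosl1, where B3galt5D116A against St6galnac6-/- gave 0.74 (-0.0905 to 1.57).

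Females were set against males over the 4 genotypes. The differences ran from -0.37 for Maff to 0.0067 for Fosl2, and 8 of 9 members were negative, as were 53.8% of all genes. Limma called 0 of 9 (0.052% of all genes), also at an unadjusted p under 0.05 (1.66% of all genes), with an adjusted p of 0.9998 for each. Jun was lower in the female library in 4 of 4 genotypes, and each of the other 8 tested members in 3 of 4.

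The members varied together over the 8 libraries to different degrees. Pearson correlations of log2(FPKM + 1) between the 36 pairs of tested members ran from 0.17 (Fosl2 and Jun) to 0.96 (Fos and Fosb), with a median of 0.77. Among the genes most like Fos were Foxo3 (r = 0.98), Ypel3, Fosb and Epas1 (each r = 0.96). Those most like Atf3 were Rab11fip1, Mafk and Pdp1 (each r = 0.99), Sox21 and Nr4a3 (each r = 0.98). Each r is over 8 libraries that fall into wild-type and mutants, which share their depth and genotype, and is given as a description.

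Relatives and dimer partners of AP-1 were read in the same comparison. Of 17 related leucine zipper genes, 11 were tested, and their median difference in the mean of the 3 mutants was -0.19, with 9 negative (51.2% of all genes). Mafk, a small Maf like Maff, was the 1 that passed (0.182% of all genes did). It measured 79.4 and 107 FPKM in wild-type and 42.2 to 56.3 FPKM in the mutants, a log2 difference of -0.93 (SE 0.12, limma adjusted p = 0.0499). Atf2, a constitutive partner of Jun, measured 11.7 and 12.4 FPKM in wild-type and 11.1 to 14.2 FPKM in the mutants.

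Of 19 listed kinases and factors that act upstream of AP-1, 18 were tested and 0 passed limma, with 3 at an unadjusted p under 0.05 (11.3% of all genes), all 3 lower, and a median of -0.071. Those 3 are transcription factors or a coactivator. Srf, the serum response factor that binds the CArG box, measured 40.1 and 48.1 FPKM in wild-type and 24.5 to 29.9 FPKM in the mutants (log2 -0.67, adjusted p = 0.120). Crem, whose promoter is itself inducible by cAMP, was at 7.98 and 14.9 FPKM against 3.62 to 6.27 FPKM (log2 -1.04, adjusted p = 0.153). Mkl1, a coactivator of Srf, had a difference of -0.26 (adjusted p = 0.414). The kinases themselves lay near 0, for example Mapk3 (ERK1) with -0.048 and Mapk8 (JNK1) with -0.049, and Creb1 had 0.19 (adjusted p = 0.532).

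Among 27 genes known as AP-1 targets, 15 were tested and 0 passed, with a median of -0.10. At an unadjusted p under 0.05, 5 were lower (6.01% of all genes) and 1 higher (5.3% of all genes). The EGF receptor ligand Hbegf measured 181 and 240.4 FPKM in wild-type and 81.4 to 139 FPKM in the mutants (log2 -0.96, SE 0.13, limma adjusted p = 0.0597). Areg, another ligand of that receptor, was at 316 and 529 FPKM against 183 to 273 FPKM (log2 -0.93, adjusted p = 0.247), and the cornified envelope gene Sprr1a had -1.03 (adjusted p = 0.354). The adhesion receptor Cd44 was the 1 higher, at 9.67 and 12.2 FPKM against 13.6 to 17.9 FPKM (log2 0.48, adjusted p = 0.154). The matrix metalloproteases of the list were low, with Mmp10 listed at 0 in every library.

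The other immediate early genes, heat shock genes and proliferation markers were read in the mean of the 3 mutants against wild-type. Of 18 other immediate early genes, 17 were tested, 3 fell (0.139% of all genes did) and 12 were lower at an unadjusted p under 0.05 (6.01% of all genes), with a median of -0.52. The 3 were Nr4a1 (log2 -1.41), Nr4a3 (log2 -2.05) and Csrnp1 (log2 -1.48, limma adjusted p = 0.00807), and Myc was the 1 that was higher (log2 0.53, adjusted p = 0.313). The 9 heat shock genes had positive differences, with a median of 0.50 and 0 past the test or at an unadjusted p under 0.05. The small chaperone Hspb1 had the largest (log2 1.35, adjusted p = 0.563), and Hspa1a, an inducible Hsp70 gene, had 0.73 (adjusted p = 0.642). The list summed to 2790.3 and 3259 FPKM in wild-type and to 4581 to 5069 FPKM in 5 mutant libraries, but to 1702 FPKM in the B3gnt7-/- female, where the AP-1 sum was still 66.4% of the wild-type mean. The 6 proliferation markers were all higher at an unadjusted p under 0.05 (5.3% of all genes), with a median of 0.72 and 0 past the test. Kif11, a mitotic kinesin, had 0.72 (adjusted p = 0.326) and Ccnb1, a mitotic cyclin, 0.75 (adjusted p = 0.355). The list summed to 69.3 and 78.7 FPKM in wild-type and 84.2 to 172 FPKM in the mutants. Singly, the median of the proliferation markers was 0.75 in St6galnac6-/-, 0.84 in B3galt5D116A and 0.52 in B3gnt7-/-. At an unadjusted p under 0.05, 4, 6 and 0 of the 6 were higher in that order. Over all 11537 genes, 1043, 1355 and 827 were at that threshold in either direction. The part of heat shock and proliferation genes in the AP-1 differences was not tested.

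**Figure D5:**
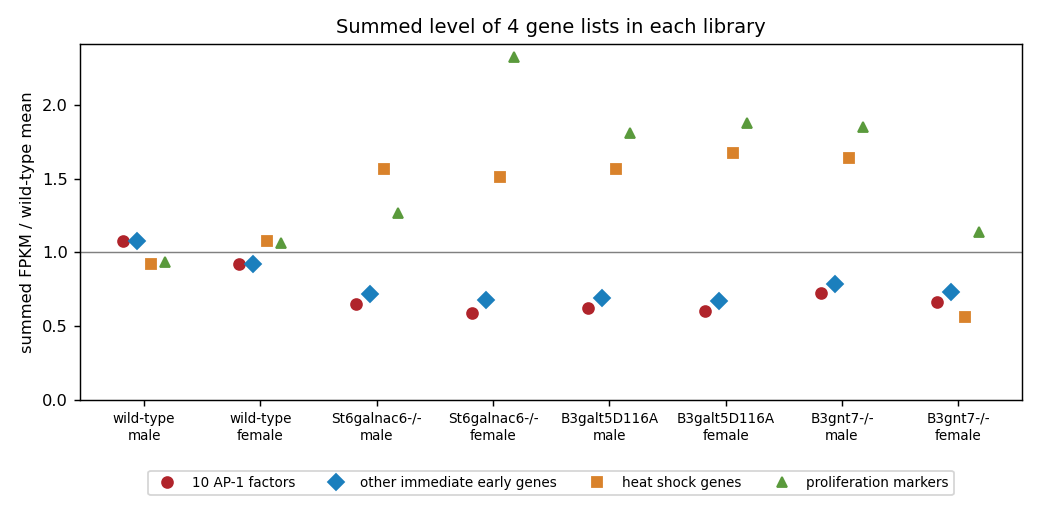
Summed FPKM of the 10 AP-1 factors, 18 other immediate early genes, 9 heat shock genes and 6 proliferation markers in each library, divided by the mean of the 2 wild-type libraries (vertical axis from 0, line at 1). The AP-1 sum is at 58.9% to 72.4% of the wild-type mean in all 6 mutant libraries, while the heat shock sum is above it in 5 and below it in the B3gnt7-/- female.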

How the data were processed

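Per the file headers, each library has a table, deposited by the authors, of FPKM per gene symbol. Build mm10, Cuffdiff 2.2.1, TopHat2 2.1.1, SAMtools 0.1.18 and Bowtie2 2.2.8 are listed in the submitters' processing notes, and parameters and the annotation are not given in the sources used here. Per the labels' protocols, libraries were made with a stranded mRNA kit. No batch or date is labelled, so a batch and the genotype cannot be told apart.

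Values were taken as log2(FPKM + 1). Genes averaging 1 FPKM or more (11537) were fitted with limma 3.58.1 in R 4.3.3 (eBayes with a trend), with genotype and sex as terms over all 8 libraries, 3 residual and 4.02 prior degrees of freedom. P-values are two-sided and adjusted by Benjamini-Hochberg over all genes of a comparison. Folds on this scale understate the change of low genes. Relative depth came from values under 0.15 FPKM, over 740 to 907 genes per library, and no counting interval can be given. The fit was tested on simulated data, with a log2 change of -1 or -2, each set in 100 genes of a single mutant. Noise was drawn as normal and independent for each gene. A change of -1 was called in 50% of such genes for St6galnac6-/-, 52% for B3galt5D116A and 65% for B3gnt7-/-. A change of -2 was called in 90%, 93% and 91%, and false calls numbered 8, 4 and 14. The real comparisons with wild-type called 10, 9 and 6 genes in that order, fewer than were changed in the simulation. The simulated rates depend on that number and on the noise drawn, and may not hold for these data. A member that did not pass in a single mutant may still differ. Positions are from GENCODE M21. Sequences are from RefSeq on GRCm38.p6.

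The members, lists and tests were chosen with earlier results of these data known. All 10 members are named. Of the other pathway lists, the genes that passed or up to 4 with the smallest p are named. Others are named as examples after their values were seen. Marker lists are given by their sums, with some markers also named. Of the 5 genes most like Fos and the 5 most like Atf3, 1 is not reported here. Alternatives were other pseudocounts, filters, scalings and model terms, and each library left out.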

Additional observations from a re-analysis of the deposited data

Results flagged for a closer look

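Fosl2 in B3gnt7-/- moved in opposite directions in the 2 sexes. The male B3gnt7-/- library minus the male wild-type library was -10.1 FPKM, and the same difference in females was 2.96 FPKM. With 1 library for each sex and genotype the difference between the sexes was not tested. Of the 9 tested members and 3 mutants, this was the only pair of opposite signs.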

How the results depend on the processing

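The labels number no replicates, and the fit pairs the libraries by sex, with the fit without the sex term as an alternative. Of 1197 values of single members under the alternatives, 1133 kept their direction and their side of the threshold, 16 lost it, 12 gained it and 36 changed sign. In the mean of the 3 mutants, 2 members passed, and 0 with no filter on low values or a constant prior variance. Calls over all genes were 21, against 12 (of 24346 genes) and 11 in those settings. The members that passed also changed with the library left out. Under quantile normalization Atf3 and Junb passed in place of Fosb (adjusted p = 0.0481, 0.0481 and 0.107). In St6galnac6-/- 0 became 2 with no sex term and 3 when fitting only the genotypes compared. Calls over all 11537 genes rose too, from 10 to 23 and 49 in those settings. In B3galt5D116A 0 became 1 with no sex term, where calls over all genes rose from 9 to 16. The median of the members was -0.63 in the mean of the 3 mutants with no filter and -0.63 with quantile normalization, -0.63 and -0.58 in St6galnac6-/-, and -0.61 and -0.58 in B3gnt7-/-. Leaving out a library gave -0.75 to -0.65 in the mean of the 3 mutants and -0.70 to -0.48 in B3gnt7-/-. Between mutants it gave -0.094 to 0.14 (B3galt5D116A against St6galnac6-/-) and -0.11 to 0.27 (B3gnt7-/- against St6galnac6-/-).

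The following signs changed. Against wild-type it was Fosl2 in B3gnt7-/-, -0.31 to 0.082 with a library left out. For B3galt5D116A against St6galnac6-/-, quantile normalization gave -0.0061 for Atf3 and -0.10 for Jund, and median centring 0.012 for Junb. Leaving out a library gave -0.094 to 0.33 for Atf3, -0.11 to 0.025 for Fos, -0.16 to 0.14 for Junb, -0.23 to 0.25 for Jund and -0.064 to 0.68 for Maff. For B3gnt7-/- against St6galnac6-/-, median centring gave 0.018 for Junb, and leaving out a library -0.26 to 0.81 for Fosl1, -0.37 to 0.12 for Jun, -0.16 to 0.15 for Junb, -0.11 to 0.20 for Jund and -0.30 to 0.50 for Maff. For B3gnt7-/- against B3galt5D116A it gave -1.08 to 0.16 for Fosl1, -0.21 to 0.28 for Jun, -0.15 to 0.16 for Junb, -0.20 to 0.28 for Jund and -0.61 to 0.19 for Maff. For females against males, quantile normalization gave 0.059 for Fos, and leaving out a library -0.16 to 0.00080 for Fosb, -0.50 to 0.080 for Fosl1 and -0.092 to 0.042 for Fosl2. The cause of these changes was not tested. Fitting only the genotypes compared could not be done for the mean of the 3 mutants or for sex. With no filter, Batf had a log2 difference of 0.00038 in the mean of the 3 mutants (adjusted p = 1.0).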
